A study of Mus musculus with 60 samples.

Results

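Junctions in the immunoglobulin light chain loci were taken from all 60 libraries of a translocation-mapping experiment in CH12F3 cells. Members were all junctions with a deposited position from 67400000 to 70799999 on chromosome 6 (Igk, the kappa locus) or from 18900000 to 19399999 on chromosome 16 (Igl, the lambda locus), in mm9. Of 1219247 junctions, 793 (0.0650%) met this rule, 672 in Igk and 121 in Igl. Igk junctions were found in all 60 libraries, from 1 to 43 per library, and Igl junctions in 40 libraries, at most 11 in any.

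CH12F3 cells come from a mouse B-cell lymphoma and undergo class switching on stimulation, which here lasted 72 h and used TGF-β, IL-4 and an antibody to CD40. The assay, LAM-HTGTS, amplifies DNA linearly from one fixed broken end, the bait, and sequences what was joined to it, so it lists the translocation partners of the bait across the genome; the bait lay on chromosome 15. Lig4-KO cells lack DNA ligase 4, which seals breaks in classical end joining, and were given valemetostat, tazemetostat or DMSO (5 libraries each). WT cells also given the PI3Kδ inhibitor idelalisib received the same 3 treatments (5 libraries each). AID-KO cells lack activation-induced cytidine deaminase and had 3 valemetostat, 4 tazemetostat and 5 DMSO libraries, and WT cells without idelalisib had 8, 5 and 5. Both compounds inhibit EZH2, the enzyme that methylates lysine 27 of histone H3, and the series asks whether they change translocations. Doses, the number of clones behind each knockout, and whether replicates were separate cultures are not in the labels, and p-values therefore speak only of the spread among these libraries, part or all of which may be technical.

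The Igk locus is laid out as a long array of V segments, then a short cluster of J segments, then the constant exon Igkc with enhancers behind it. Igl is much shorter, with few V segments and several J-C pairs. B cells join V to J during their development, with the RAG nuclease and classical end joining. In activated B cells AID deaminates cytosines, chiefly in the switch regions of the heavy chain locus Igh, and in germinal centres also in rearranged light chain genes. The last 200 kb of the Igk interval, from 70600000, is called the J-C end here because the order of the locus places J segments and Igkc there, and the 3.2 Mb before it the V part. Exact mm9 positions of the segments were not used here.

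Each value is a percent of the genome-wide junctions of a library, meaning those outside chromosome 15, Igh, Igk and Igl, unless all junctions are named. Libraries held 35258 to 56900 junctions in Lig4-KO and 7419 to 22089 elsewhere, of which 4451 to 19125 were genome-wide. A single junction therefore moves the value of a shallow library far more than that of a Lig4-KO library. The Igh total checks the AID-KO label, with 49 Igh junctions in 12 AID-KO libraries and 4426 in 18 WT libraries. All Lig4-KO libraries came from 1 sequencing run that held no other background, so Lig4-KO and run cannot be told apart. Nor can AID-KO against WT under any treatment, idelalisib against none in DMSO and in tazemetostat, or valemetostat against DMSO in WT and in WT plus idelalisib. Valemetostat against tazemetostat also coincides with run in WT plus idelalisib, in AID-KO and in WT. Within Lig4-KO all 3 treatments shared their run, as did tazemetostat and DMSO in WT and in WT plus idelalisib.

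Igk junctions were concentrated at one end of the locus. Over all libraries the J-C end held 479 of 672 Igk junctions (71.3%) in 200 kb, and the V part held 193. In DMSO libraries the share of Igk junctions in the J-C end was 84.8% in Lig4-KO (151 of 178, exact binomial 95% interval 78.7 to 89.8), 65.0% in WT plus idelalisib (26 of 40, 48.3 to 79.4), 25% in AID-KO (5 of 20, 8.66 to 49.1) and 57.1% in WT (12 of 21, 34.0 to 78.2). These intervals pool the junctions of 5 libraries and cover counting error only, not the spread between libraries. Those of WT plus idelalisib and WT overlap widely. The AID-KO interval also overlaps that of WT (34.0 to 49.1) and, barely, that of WT plus idelalisib (48.3 to 49.1). With all treatments pooled the shares were 83.1, 65.2, 20.4 and 37.5% in the same order, and the pooled WT share includes 8 of 29 junctions (27.6%) from the 8 valemetostat libraries and 7 of 22 (31.8%) from the tazemetostat libraries. Tiles of 200 kb were ranked by junctions, leaving out chromosome 15 and Igh. Among the 12195 tiles with a junction in any library, the J-C end was number 6 in Lig4-KO DMSO libraries, 16 in WT plus idelalisib, 1868 in AID-KO and 48 in WT, with DMSO in each case.

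**Figure D1:**
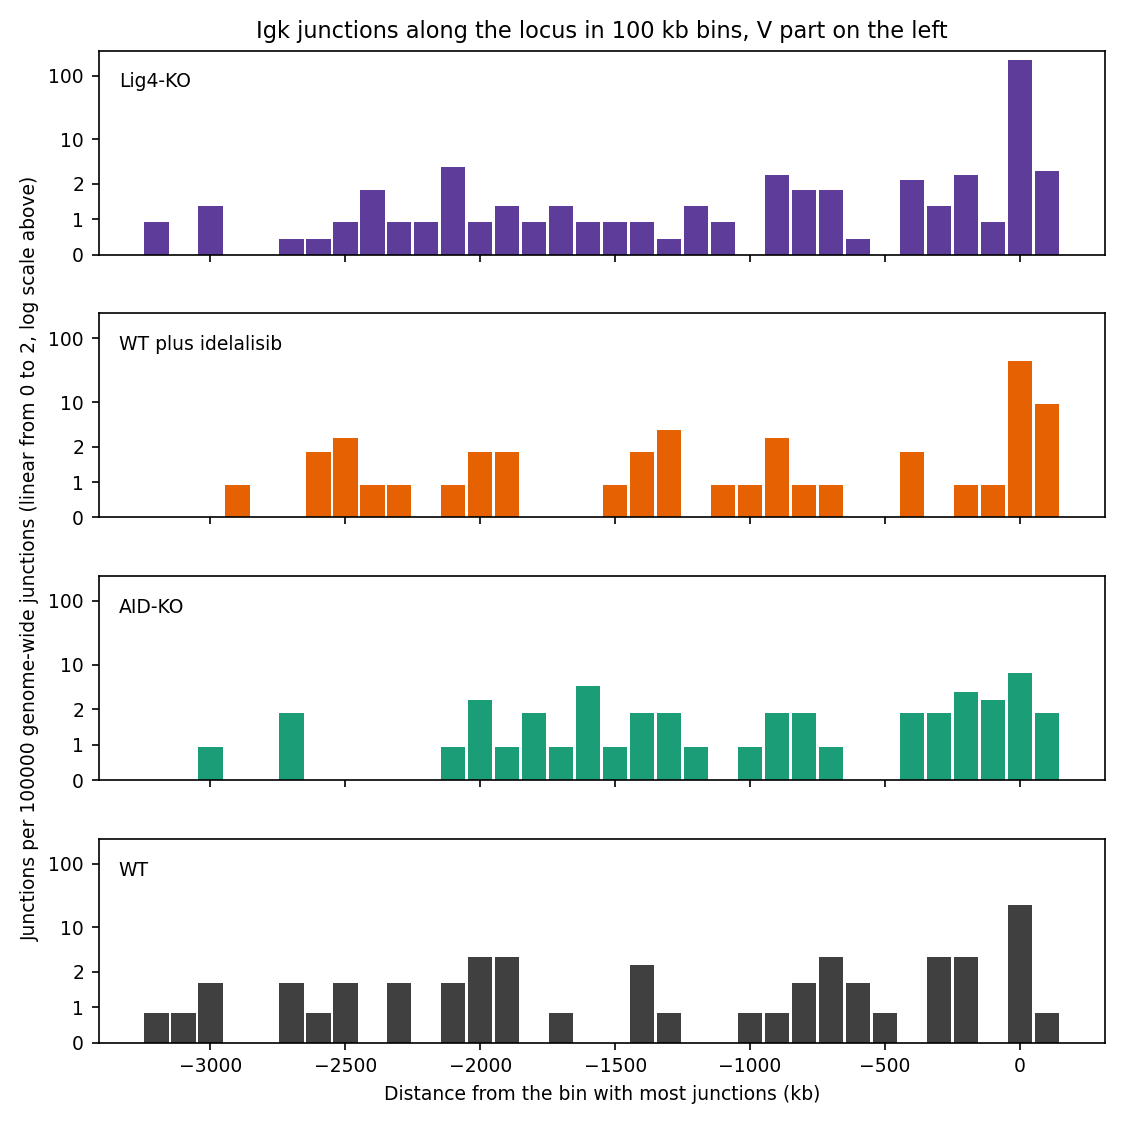
Igk junctions in 100 kb bins, per 100000 genome-wide junctions of each background, with all treatments pooled, against distance in kb from the bin with most junctions (vertical axis linear from 0 to 2 and logarithmic above). The bin at 0 kb holds 377 junctions in Lig4-KO, 48 in WT plus idelalisib, 8 in AID-KO and 26 in WT, and no bin of the V part holds more than 15 over all libraries.

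In bins of 100 kb, the one from 70600000 to 70699999 held 459 junctions from 54 libraries, and no other Igk bin came near it. The next was its neighbour from 70700000 with 20 junctions, 10 of them from WT plus idelalisib and 14 on the plus strand. The bin from 70400000 held 15, of which 14 lay on the minus strand, and those from 68500000 and 69700000 held 12 each. The 32 bins of the V part had a median of 5 junctions and ranged from 0 to 15.

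The V part was sparse in every background and by a like amount. Its mean per 100 kb was 0.267 times that of genome-wide tiles in Lig4-KO, 0.214 times in WT plus idelalisib, 0.275 times in AID-KO and 0.287 times in WT. How well reads can be placed in this repetitive array was not tested. In DMSO the V part made up 0.0377% ± 0.00959 in Lig4-KO, 0.0387% ± 0.0116 in WT plus idelalisib, 0.0427% ± 0.0137 in AID-KO and 0.0286% ± 0.0238 in WT (SD, n = 5 each). No V-part difference between Lig4-KO and WT in DMSO was detected, at 0.00912 points (exact permutation test, adjusted p = 0.726 over 6 comparisons, a test added after the data were seen).

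Within the J-C end, junctions formed a single mound. The densest 1 kb, from 70673000 to 70673999, held 91 junctions, and the 12 kb around it, from 70667500 to 70679499, held 420, or 87.7% of the J-C end. These 12 kb, called the core, were chosen after the data were seen, from all libraries pooled, so that Lig4-KO, with 354 of the 420, set where they lie. They are described without a test, and counts in them are no comparison of backgrounds that is independent of that choice. The 420 junctions lay at 403 distinct positions and strands, so the mound was not made by a few repeated breakpoints.

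In DMSO libraries Lig4-KO had 142 core junctions among 70490 genome-wide junctions, or 0.201% (exact binomial 95% interval 0.170 to 0.237). WT plus idelalisib had 20 among 36325, or 0.0551% (0.0336 to 0.0850), AID-KO 1 among 36939, or 0.00271% (6.85e-05 to 0.0151), and WT 11 among 31646, or 0.0348% (0.0174 to 0.0622). The intervals of WT plus idelalisib and WT overlap, and they cover counting error only, not the spread between libraries. At least 1 core junction was found in all 15 Lig4-KO libraries of the 3 treatments, in all 15 of WT plus idelalisib, in 1 of 12 of AID-KO and in 12 of 18 of WT. WT had 4 core junctions in 8 valemetostat libraries and 5 in 5 tazemetostat libraries. Outside the core the J-C end had 30 junctions in Lig4-KO, 13 in WT plus idelalisib, 9 in AID-KO and 7 in WT, with all treatments pooled.

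**Figure D2:**
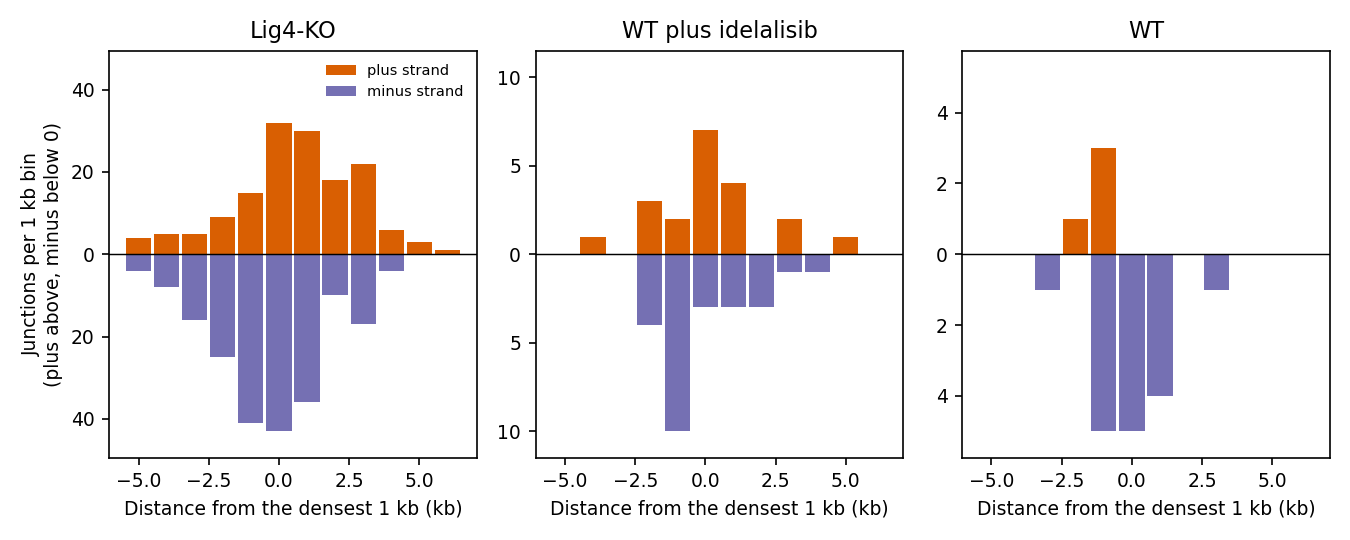
Core junctions in 1 kb bins against distance in kb from the densest 1 kb, with plus-strand junctions above and minus-strand junctions below 0, for Lig4-KO, WT plus idelalisib and WT (vertical scales differ). AID-KO is not drawn, having 1 core junction. In Lig4-KO minus-strand junctions prevail below the centre and plus-strand junctions at 2 kb and beyond above it.

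In Lig4-KO the core had more minus-strand than plus-strand junctions, and the plus-strand share was higher above its centre than below. The intervals given for these shares cover counting error only. Of Lig4-KO core junctions 42.4% were on the plus strand (37.2 to 47.7), against 49.9% of genome-wide junctions in the same libraries. The Lig4-KO plus-strand share was 32.7% (20.3 to 47.1) of the 52 junctions at least 2 kb below the centre and 61.3% (48.1 to 73.4) of the 62 at least 2 kb above it. Within 2 kb of the centre it was 39.6% (33.4 to 46.1) of 240. These cuts at 2 kb were chosen after the data were seen. Split at the centre, the Lig4-KO share was 36.0% (28.9 to 43.7) of 172 below and 48.4% (40.9 to 55.9) of 182 above. These intervals overlap. By treatment, below and above, the share was 37.0 and 47.6% with valemetostat, 37.7 and 43.7% with tazemetostat, and 34.2 and 53.6% with DMSO. The other backgrounds had too few junctions to show such a difference. In WT plus idelalisib 11 of 26 junctions below the centre and 9 of 19 above it were on the plus strand, including all 3 at least 2 kb below, and in WT 4 of 13 below and 0 of 7 above. The median plus-strand junction in Lig4-KO lay 0.677 kb above the centre and the median minus-strand junction at -0.265 kb. The middle 50% of Lig4-KO core junctions lay from -1.05 to 1.43 kb, and under valemetostat, tazemetostat and DMSO the medians were -0.0830, 0.183 and -0.0815 kb. The V part had 43.0% plus-strand junctions (35.9 to 50.3).

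Single positions recurred rarely. Among 745 distinct light chain positions and strands, 39 were seen in 2 libraries and 4 in 3 or more, and no library held the same light chain junction more than 1 time. The most widespread was 70697634 on the plus strand, in 4 libraries, 2 of AID-KO and 1 each of Lig4-KO and WT. Positions 70691186, 69241348 and 69273831, all on the minus strand, were each in 3 libraries. All 4 lie outside the core, and the pair in the J-C end supplied 3 of the 10 AID-KO junctions there.

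Without ligase 4, a larger share of junctions fell in Igk, and the surplus lay in the J-C end. In Lig4-KO DMSO libraries Igk made up 0.264, 0.224, 0.293, 0.229 and 0.257%, against 0.0653, 0.0650, 0.0165, 0.0713 and 0.111% in WT DMSO libraries. The groups did not overlap. The means were 0.254% ± 0.0280 in Lig4-KO and 0.0658% ± 0.0336 in WT (SD, n = 5 each), a ratio of 3.85, and the exact permutation test gave p = 0.00794, the smallest possible for 5 against 5, and adjusted p = 0.0238 over 6 comparisons. As a share of all junctions, Igk was 0.0874% ± 0.00659 in Lig4-KO and 0.0399% ± 0.0204 in WT, a ratio of 2.19 (exact permutation test, n = 5 each, adjusted p = 0.0476), a call lost without any 1 of the Lig4-KO libraries (adjusted p = 0.0714 to 0.0794).

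For the J-C end alone the ratio of means was larger, while the difference in points was 0.188 for whole Igk and 0.179 for the J-C end. It held 0.215, 0.196, 0.257, 0.199 and 0.211% in Lig4-KO DMSO libraries, against 0.0327, 0.0325, 0.0165, 0.0570 and 0.0476% in WT DMSO libraries. Every Lig4-KO library was above every WT library, with a ratio of means of 5.79 and a difference of 0.179 points (interval 0.152 to 0.209, exact permutation test, adjusted p = 0.0437 over 11 comparisons). Taken over all junctions, the J-C end share was 0.0743% ± 0.00518 for these Lig4-KO libraries and 0.0225% ± 0.00911 for these WT libraries. That is a smaller ratio, again with no overlap, and it was not tested. Genome-wide junctions were 70490 of 203677 for the Lig4-KO libraries, but 31646 of 52349 for the WT libraries. The smaller genome-wide part in Lig4-KO therefore raises the ratio of 5.79. With every library thinned to 7419 junctions in a single random draw, the J-C end difference per genome-wide junction was 0.183 points. It was short of the threshold at an adjusted p of 0.0698 by the exact permutation test. Set against Igh, Lig4-KO DMSO had 4.78 ± 0.326 J-C end junctions per 100 Igh junctions and WT DMSO had 0.663 ± 0.293 (n = 5 each), a ratio of 7.20. This ratio was added after the data were seen, and its exact permutation p of 0.00794 became 0.0635 after adjustment over 8 comparisons, so it did not pass.

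Among genome windows, Igk stood near the top of the Lig4-KO contrast. In limma voom over 729 windows of 1 Mb with Igk as a feature of its own, Igk was higher by 1.90 on the log2 scale in Lig4-KO DMSO than in WT DMSO (SE 0.40, adjusted p = 0.00128). In that fit 4.12% of features were called, and 5 had a larger change than Igk. Igk averaged 35.6 junctions in Lig4-KO DMSO libraries and 4.2 in WT DMSO libraries. It passed the filter, a mean of at least 5 over both groups, only through Lig4-KO. Its place among the features is therefore no independent support for a rise, and it spans 3.4 Mb beside windows of 1 Mb.

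**Figure D3:**
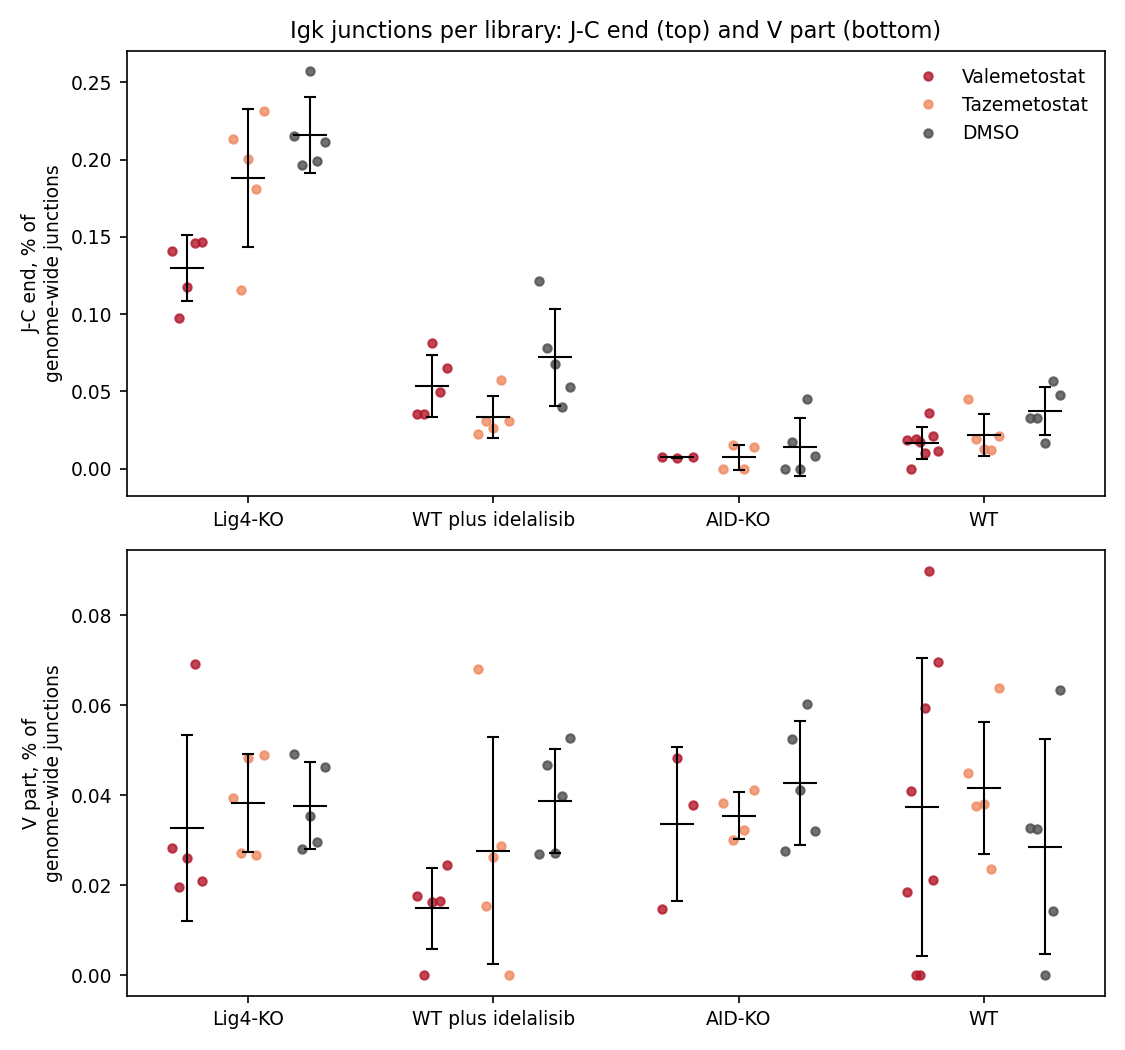
Igk junctions per library in the J-C end (top) and in the V part (bottom), as percent of genome-wide junctions, by background and treatment. Points are libraries, and bars are the mean with SD. J-C end values of Lig4-KO lie between 0.0978 and 0.257%, above all other libraries except 1 WT plus idelalisib DMSO library at 0.122%, whereas V part values overlap among all backgrounds.

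With each inhibitor Igk was also higher in Lig4-KO as a share of genome-wide junctions, but not detectably so as a share of all junctions. Igk held 0.163% ± 0.0363 in Lig4-KO with valemetostat (n = 5) and 0.0541% ± 0.0364 in WT with valemetostat (n = 8), a ratio of 3.0 (exact permutation test, adjusted p = 0.0186 over 12 comparisons). The lowest Lig4-KO library, at 0.117%, lay just under the highest WT library at 0.126%. With tazemetostat the means were 0.226% ± 0.0534 in Lig4-KO and 0.0635% ± 0.0232 in WT (n = 5 each), with no overlap and a ratio of 3.57 (exact permutation test, adjusted p = 0.0476, and 0.0606 to 0.0808 without any 1 of the WT libraries). Of all junctions, Igk made up 0.0522% in Lig4-KO and 0.0339% in WT with valemetostat, a ratio of 1.54, and 0.0703% in Lig4-KO and 0.0383% in WT with tazemetostat, a ratio of 1.84 (exact permutation tests, adjusted p = 0.460 and 0.286).

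Igl gave the same order in DMSO from far fewer junctions. Lig4-KO DMSO libraries held 11, 9, 7, 6 and 11 Igl junctions, against 0, 2, 1, 0 and 0 in WT DMSO libraries. As a share this was 0.0620% ± 0.0107 in Lig4-KO and 0.00981% ± 0.0146 in WT (n = 5 each), a difference of 0.0521 points with no overlap (exact permutation test, adjusted p = 0.0238, and 0.0952 with libraries thinned to 7419 junctions). The lowest Lig4-KO share was 0.0443% and the highest WT share 0.0325%. Of all junctions, Igl made up 0.0213% in Lig4-KO and 0.00597% in WT, which did not pass (n = 5 each, adjusted p = 0.0714 by the exact permutation test). With each inhibitor the Igl difference between Lig4-KO and WT had an adjusted p of 0.0714 (exact permutation test), at 0.0156 points under valemetostat and 0.0227 points under tazemetostat.

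Across all 60 libraries Igl was at 0 in 20, where a count of 0 allows up to 0.0240 to 0.0633% depending on depth. No library outside Lig4-KO held more than 3 Igl junctions, so differences among the other backgrounds were not detectable at this depth. Per 100 kb, Igl had 1.84 times the genome-wide mean in Lig4-KO, 0.574 times in WT plus idelalisib, 0.632 times in AID-KO and 0.408 times in WT.

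Igl junctions were spread over several parts of the interval. The bin from 19000000 to 19099999 held 64 of 121, from 29 libraries, and the bin from 19200000 to 19299999 held 22 from 14 libraries. Lig4-KO supplied 48 of the 64 and 16 of the 22. In bins of 10 kb the most were 18 from 19020000, 13 from 19240000 and 12 from 19030000, chosen on pooled counts to which Lig4-KO gave 16, 12 and 11. In the same order WT plus idelalisib had 2, 1 and 0, AID-KO 0 in all 3 and WT 0, 0 and 1. Plus-strand junctions made up 40.5% of Igl (31.7 to 49.8), and 44.0% (33.2 to 55.3) in Lig4-KO.

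**Figure D4:**
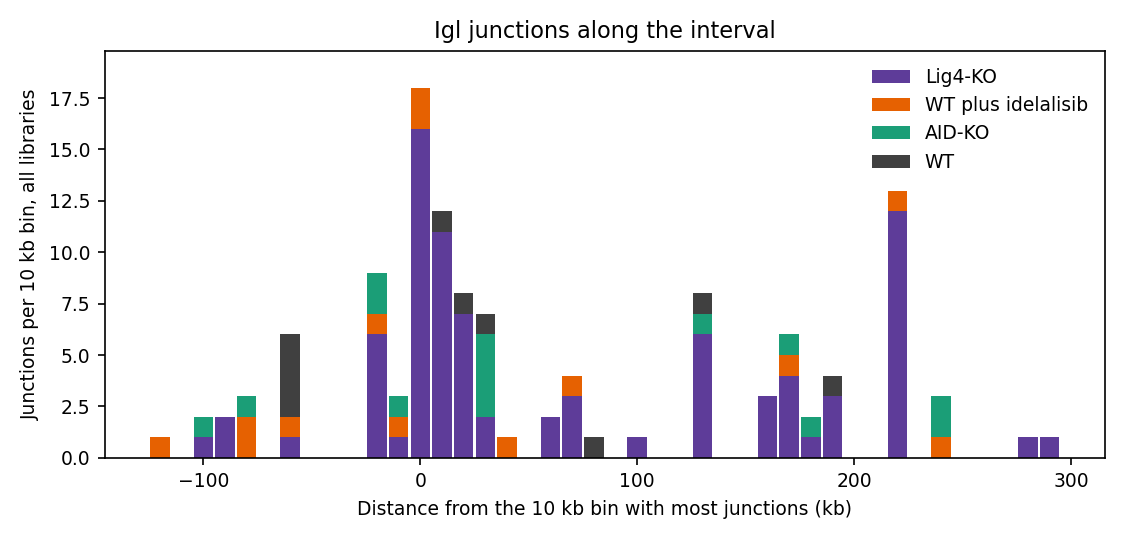
Igl junctions of all libraries in 10 kb bins, coloured by background, against distance in kb from the bin with most junctions. The tallest bin holds 18 junctions, 16 of them from Lig4-KO, and a second group of 13 lies 220 kb away.

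In Lig4-KO the J-C end share was lower with valemetostat than with DMSO. The J-C end held 0.141, 0.0978, 0.117, 0.146 and 0.146% in Lig4-KO valemetostat libraries, all below the 5 DMSO libraries, which ran from 0.196 to 0.257%. The mean was 0.130% ± 0.0215 with valemetostat and 0.216% ± 0.0245 with DMSO (n = 5 each), a ratio of 0.601 and a difference of -0.0862 points (interval -0.119 to -0.055, exact permutation test, adjusted p = 0.0437 over 11 comparisons). The call depended on which comparisons were adjusted together, on the denominator and on thinning. Its unadjusted p by the exact permutation test was 0.00794. The 11 comparisons mix inhibitor and background contrasts. Lig4-KO against WT in DMSO had the same p, which lowers the adjusted value, and the inhibitor contrasts were not adjusted alone. Over the 16 comparisons of whole loci, where Igk and Igl both had that p in Lig4-KO with valemetostat, it becomes 0.0635. The Igh share of all junctions was also lower, at 1.02% ± 0.0508 with valemetostat and 1.56% ± 0.0616 with DMSO, and per 100 Igh junctions the J-C end stood at 4.11 ± 0.735 with valemetostat and 4.78 ± 0.326 with DMSO, a ratio of 0.861 that did not pass (adjusted p = 0.143, exact permutation test). With every library thinned to 7419 junctions in a single random draw, the difference was -0.0797 points and did not pass either (exact permutation test, adjusted p = 0.0698).

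Whole Igk and Igl fell short of the threshold in that comparison, although neither locus showed overlap between the groups. Igk averaged 0.163% ± 0.0363 in Lig4-KO valemetostat libraries and 0.254% ± 0.0280 in Lig4-KO DMSO libraries, a ratio of 0.641. Igl averaged 0.0231% ± 0.0127 with valemetostat and 0.0620% ± 0.0107 with DMSO, a ratio of 0.372. Both had the smallest p the exact permutation test can give for 5 against 5, 0.00794, which becomes 0.0635 over 16 comparisons. In limma voom Igk was at -0.66 on the log2 scale (SE 0.169, adjusted p = 0.0509), in a fit that called 0.144% of 1393 features, and Igl at -1.42 (SE 0.485, adjusted p = 0.305). Igl averaged 3.6 junctions with valemetostat and 8.8 with DMSO, so it entered that fit only through DMSO. The V part averaged 0.0328% ± 0.0207 with valemetostat and 0.0377% ± 0.00959 with DMSO.

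Tazemetostat in Lig4-KO gave no call in either locus. The J-C end averaged 0.188% ± 0.0445 with tazemetostat and 0.216% ± 0.0245 with DMSO (n = 5 each, difference -0.0276 points, interval -0.083 to 0.017, exact permutation test, adjusted p = 0.388). One tazemetostat library, at 0.116%, lay well below the other 4, which ran from 0.181 to 0.231%. Igl held 8, 4, 4, 3 and 3 junctions with tazemetostat and 11, 9, 7, 6 and 11 with DMSO, or 0.0318% ± 0.0179 and 0.0620% ± 0.0107 of genome-wide junctions (exact permutation test, adjusted p = 0.127). limma voom put Igk at -0.19 and Igl at -1.05 on the log2 scale (adjusted p = 0.845 and 0.463), with 0.379% of 1321 features called. Igl, with a mean of 4.4 junctions under tazemetostat and 8.8 under DMSO, entered that fit only through DMSO.

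The Igl change with valemetostat differed between Lig4-KO and WT. In Lig4-KO it was -0.0389 points and in WT -0.00239 points, and the difference of the changes was -0.0365 points (Freedman-Lane permutation test of the interaction, adjusted p = 0.0210 over 12 terms). Valemetostat and DMSO lay in 1 run in Lig4-KO and in different runs in WT, so this term cannot be told apart from run. WT began at 0.00981%, so it could not have fallen by as many points, and on a log2 scale with a pseudocount of 0.01% the term did not pass (permutation test, adjusted p = 0.577). For Igk the same term was -0.0793 points and did not pass (permutation test, adjusted p = 0.0766).

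With idelalisib, which has been reported to raise AID levels in B cells, the J-C end averaged 0.0720% ± 0.0313 in DMSO, against 0.0373% ± 0.0156 in WT DMSO (n = 5 each). The ratio was 1.93 and the difference did not pass (exact permutation test, p = 0.0397, adjusted p = 0.0873), with libraries of both groups overlapping. Whole Igk stood at 0.111% ± 0.0268 with idelalisib and 0.0658% ± 0.0336 without (exact permutation test, adjusted p = 0.111). In limma voom Igk was at 0.79 on the log2 scale (SE 0.560, adjusted p = 0.927), and 0.93% of 215 features were called. Igk averaged 8 junctions with idelalisib and 4.2 without, so it entered that fit only through idelalisib. Under valemetostat the libraries with and without idelalisib shared a run, and Igk there was 0.0682% ± 0.0257 with idelalisib (n = 5) and 0.0541% ± 0.0364 without (n = 8, exact permutation test, adjusted p = 0.624).

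Under idelalisib both compounds gave lower Igk means that did not pass the adjusted test. Valemetostat libraries averaged 0.0682% ± 0.0257 and tazemetostat libraries 0.0613% ± 0.0259, against 0.111% ± 0.0268 in DMSO libraries (n = 5 each, exact permutation tests, p = 0.0476 and 0.0317, adjusted p = 0.152 and 0.127). The J-C end averaged 0.0533% ± 0.0199 with valemetostat, 0.0336% ± 0.0137 with tazemetostat and 0.0720% ± 0.0313 with DMSO, with adjusted p of 0.382 and 0.0655 by the exact permutation test. Per 100 Igh junctions these were 0.860, 0.559 and 1.19. limma voom placed Igk at -0.44 with valemetostat and -0.59 with tazemetostat on the log2 scale (adjusted p = 0.906 and 0.955), in fits that called 0.397% and 0% of features. Igk averaged 4.6 junctions with tazemetostat and 8 with DMSO, so it entered the tazemetostat fit only through DMSO.

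In WT the J-C end showed low means with both compounds, again without passing. It held 0.0167% ± 0.0104 with valemetostat (n = 8), 0.0219% ± 0.0135 with tazemetostat (n = 5) and 0.0373% ± 0.0156 with DMSO (n = 5), with adjusted p of 0.0655 and 0.212 by the exact permutation test. The Igh share of all junctions in the same libraries was 1.37% ± 0.210, 2.74% ± 0.296 and 3.45% ± 0.181. Per 100 Igh junctions the J-C end stood at 0.798 with valemetostat, 0.469 with tazemetostat and 0.663 with DMSO, so the valemetostat value lay above DMSO on that scale. Whole Igk stood at 0.0541, 0.0635 and 0.0658% in these 3 groups.

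Without AID, in a comparison that cannot be told apart from sequencing run, whole Igk did not differ detectably from WT, at 0.0569% ± 0.0313 in AID-KO libraries with DMSO and 0.0658% ± 0.0336 in WT libraries with DMSO (n = 5 each, difference -0.00896 points, interval -0.054 to 0.040, exact permutation test, adjusted p = 0.762). The J-C end held 0, 0.0175, 0, 0.0452 and 0.00800% in AID-KO DMSO libraries, against 0.0327, 0.0325, 0.0165, 0.0570 and 0.0476% in WT DMSO libraries. The groups overlapped, and the difference of -0.0231 points did not pass (interval -0.048 to 0.002, exact permutation test, p = 0.0714, adjusted p = 0.131). The AID-KO library at 0.0452% held 3 of the 5 J-C end junctions of its group, and 4 of those 5 lay outside the core.

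In AID-KO neither compound gave a difference in Igk or Igl that passed. Igk averaged 0.0409% ± 0.0170 with valemetostat (n = 3), 0.0427% ± 0.00974 with tazemetostat (n = 4) and 0.0569% ± 0.0313 with DMSO (n = 5), and Igl 0.0148, 0.0231 and 0.00626%. Within the run shared by tazemetostat and DMSO (4 libraries each) the Igk difference was -0.0184 points (exact permutation test, p = 0.40), and the run shared with valemetostat held 1 DMSO library. Over all backgrounds, the mean Igk share was lower with an inhibitor than with DMSO in 8 of 8 comparisons and the mean Igl share in 6 of 8, but DMSO libraries are shared between the compounds and none of the 16 passed (lowest adjusted p = 0.0635, exact permutation test, with 5 at an unadjusted p under 0.05).

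Valemetostat and tazemetostat were set side by side in 8 comparisons per denominator, and none passed. The labels give no doses, so matched doses cannot be assumed, and outside Lig4-KO the compounds lay in different sequencing runs, so compound and run cannot be told apart there. In Lig4-KO the Igk means were 0.163% with valemetostat and 0.226% with tazemetostat, a difference of -0.0639 points (interval -0.131 to 0.007, exact permutation test, n = 5 each, adjusted p = 0.571), and limma voom gave -0.47 on the log2 scale (SE 0.177, adjusted p = 0.897, 0% of 1369 features called). Igl differed by -0.00878 points in Lig4-KO (interval -0.031 to 0.010). For Igk the intervals ran from -0.033 to 0.044 points under idelalisib, from -0.032 to 0.022 in AID-KO and from -0.048 to 0.031 in WT.

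**Figure D5:**
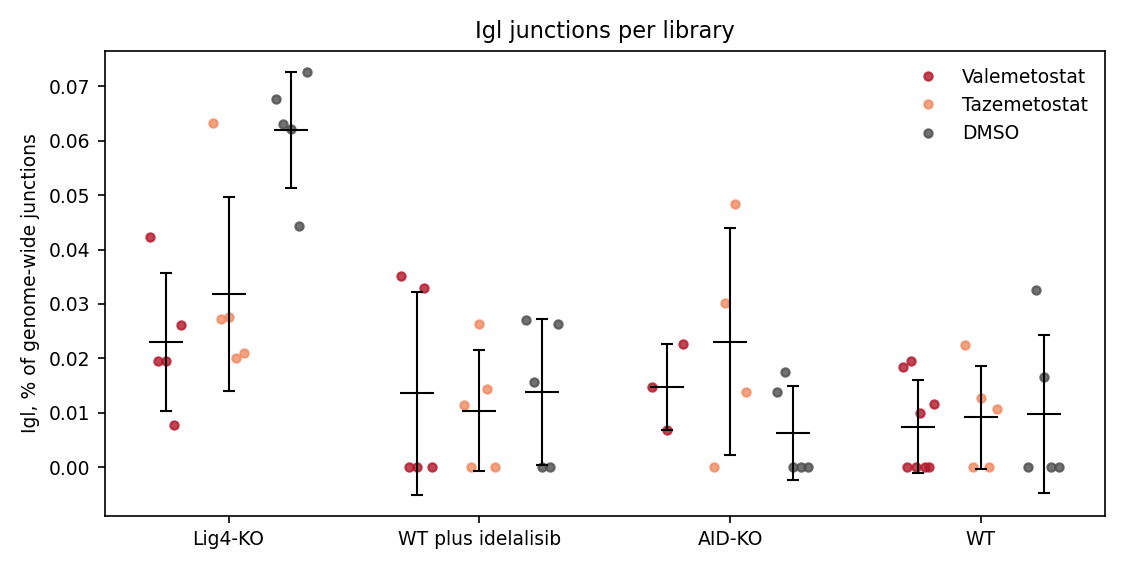
Igl junctions per library as percent of genome-wide junctions, by background and treatment, with points for libraries and bars for the mean and SD. Lig4-KO DMSO libraries lie between 0.0443 and 0.0726%, above all 5 Lig4-KO valemetostat libraries and all WT libraries, and 20 libraries sit at 0. An AID-KO tazemetostat library at 0.0483% and a Lig4-KO tazemetostat library at 0.0632% lie within that range.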

How the data were processed

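For each of the 60 libraries the authors deposited a headerless list with 1 line per junction, giving chromosome, position, strand and a score. Positions refer to mm9 per the submitters' processing notes, and libraries were paired-end 250 reads per the labels. Which aligner, caller and filters were used is not given in the sources used here, and neither is whether positions start at 0 or 1. The deposited score ran from 16 to 222, has no stated meaning and entered no test; its median was 66 for light chain and 59 for genome-wide junctions.

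Tallies per library were made in Python 3.11.15 (pandas 2.3.3, numpy 2.4.6). Genome-wide junctions leave out chromosome 15, Igk, Igl and the Igh interval (chromosome 12, 114400000 to 117300000). Group means were tested with two-sided exact permutation tests with Benjamini-Hochberg adjustment within each family and a threshold of 0.05. Intervals of differences are 95% intervals from inverting the exact test. Intervals of pooled shares, strand shares included, are exact binomial (scipy 1.17.1) and cover counting error only, not the spread between libraries. Interactions were Freedman-Lane permutation tests with 100000 draws. limma 3.58.1 (voom, R 4.3.3) was fitted to 1 Mb windows plus Igk and Igl, with a mean tally of at least 5 over both groups. A feature could therefore pass through 1 group alone. Elsewhere Igk or Igl fell under that mean and was not tested. Methods were tested on simulated data. Sequencing runs were read from read names. Whether same-numbered libraries belong together is not in the labels, and the main tests took libraries as unpaired. Over genome windows the correlation of same-numbered deviations ran from -0.0942 to 0.101 in 55 pairs. Windows with few junctions per library could hide a pairing, so these values do not decide the question.

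The members, regions and lists were chosen with earlier results of these data known. Named regions are the whole loci, the V part and J-C end, the 5 Igk and 2 Igl bins of 100 kb with most junctions, and positions seen in 3 or more libraries. The 12 kb core and the 2 kb cuts within it, the 10 kb bins, the Igh ratio, the V-part tests, the tile ranks, the J-C end shares and the within-run values were chosen after the data were seen. Alternatives covered identical junctions counted 1 time, intervals widened by 50 kb, thinning, a log2 scale, another denominator, a J-C end of 150 kb, limma settings and each library left out in turn.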

Additional observations from a re-analysis of the deposited data

Results flagged for a closer look

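In 3 of 33 sets of libraries tested for a stray value, 1 library stood apart from the rest of its group. The cut-offs used set apart about 1 in 20 groups of normally distributed values. Many of these shares rest on a few junctions, with ties and zeros, so that rate need not hold here. Lig4-KO tazemetostat replicate 1 had an Igl share of 0.0632%, from 8 junctions, while the other 4 held 3 or 4 junctions each. WT tazemetostat replicate 1 had a J-C end share of 0.0449% from 2 junctions, in the library with the fewest genome-wide junctions, 4451. WT plus idelalisib with tazemetostat replicate 4 had a J-C end share of 0.0573% from 4 junctions, where the other 4 libraries held 2 each.

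The change in Igl with valemetostat was lower by 0.0365 points in Lig4-KO than in WT (-0.0365, permutation test of the interaction, adjusted p = 0.0210), on the log2 scale the term did not pass, and it cannot be told apart from sequencing run in WT.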

How the results depend on the processing

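Values are differences in percentage points of genome-wide junctions, with the group named first minus the other, and with DMSO or WT subtracted, unless stated, and the cause of each change was not tested unless a reason is given. Calls rest on the exact permutation test, on the Freedman-Lane permutation test for interactions, and on limma where named.

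With the replicate block the exact sign-flip test cannot go below p = 0.0625 with 5 pairs, so no comparison could pass, and 0 were called in the J-C end and in both background families (also 0 of all junctions, where 1 was called without pairing). The replicate block values for Lig4-KO against WT in DMSO were 0.188 (Igk), 0.0521 (Igl), 0.179 (J-C end) and 0.0475 (Igk of all junctions), for Igk under tazemetostat 0.163 and under valemetostat 0.126, and for the J-C end with valemetostat in Lig4-KO -0.0862. With a block term in its model the Igl interaction with valemetostat still passed (-0.0386), and no other call changed.

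Thinning to the smallest library leaves fewer junctions and was done as a single random draw per library, so its spread over draws is not known. The J-C end differences became 0.183 (Lig4-KO against WT, DMSO) and -0.0797 (valemetostat against DMSO, Lig4-KO), Igl 0.0507 and Igk of all junctions 0.0539, none of them passing, while Igk under idelalisib in DMSO passed at 0.0793, and calls numbered 0 in the J-C end and 0 of all junctions in DMSO.

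With the V part alone, chosen after the data were seen, Igk lost the Lig4-KO call in DMSO (0.00912) and turned sign as a share of all junctions (-0.00439), under tazemetostat (-0.00343, and -0.0135 of all junctions), under valemetostat (-0.00460) and, without a call in either, for AID-KO (0.0142 and 0.00587 of all junctions) and tazemetostat in Lig4-KO (0.000493). Per 100 Igh junctions the J-C end gave 4.11 (Lig4-KO against WT) and -0.662 (valemetostat in Lig4-KO), neither passing, and reversed uncalled differences to 0.208 (tazemetostat in Lig4-KO) and 0.135 (valemetostat in WT).

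As a share of all junctions Igl in Lig4-KO DMSO passed with identical junctions counted 1 time (0.0246), with intervals widened by 50 kb (0.0117) and outside the bait window (0.0458), as did Igk under idelalisib with wider intervals (0.0316) and Igk in Lig4-KO under tazemetostat outside the bait window (0.141). Calls of all junctions in DMSO, 1 as reported, were then 2, 3 and 2, and under inhibitors 2 outside the bait window instead of 0. The Igl interaction lost its call with wider intervals (-0.0309) and on the log2 scale (-1.14), leaving 0 interaction calls. In limma, Igk with valemetostat in Lig4-KO passed with all junctions as library size (-0.76).

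Leaving out 1 library at a time left the J-C end calls in Lig4-KO standing, and the other values below are ranges over such settings. Igk in Lig4-KO against WT in DMSO, of all junctions (0.0400 to 0.0544), lost its call without any 1 Lig4-KO library, and under tazemetostat (0.149 to 0.184) without any 1 WT library. Igk under idelalisib (0.0325 to 0.0561, and 0.0224 to 0.0368 of all junctions) passed without WT DMSO replicate 5, without which the AID-KO difference turned from negative to 0.00235 (range from -0.0213). Igl of all junctions (0.0139 to 0.0189) passed without WT DMSO replicate 2 or 5, and under valemetostat (0.0108 to 0.0195) without Lig4-KO valemetostat replicate 4. The J-C end in WT with valemetostat (-0.0257 to -0.0156) passed without WT DMSO replicate 3, and under idelalisib with tazemetostat (-0.0464 to -0.0259) without tazemetostat replicate 4 (-0.0443). Igl with tazemetostat in Lig4-KO, of all junctions (-0.0137 to -0.0106), and its interaction (-0.0373 to -0.0261) passed without tazemetostat replicate 1. The Igk interaction with valemetostat (-0.0925 to -0.0670) passed without valemetostat replicate 4 or WT DMSO replicate 5, and limma's Igk value (-0.75 to -0.55) without that valemetostat library or Lig4-KO DMSO replicate 2. Calls ranged from 0 to 3 in DMSO of all junctions, 1 to 3 under inhibitors, 0 to 1 for inhibitors of all junctions and 1 to 2 for interactions. Of 1158 alternative values for 56 results, 1074 kept direction and side of the threshold, but these results were picked once values were known, for an unadjusted p under 0.05 or because the text describes them. Over all 107 comparisons of shares, picked or not, 1453 of 1634 alternative values did so and 139 changed sign, 3 of them, all with the V part alone, in comparisons called as reported. Part of both counts was fixed in advance. No light chain junction repeated within a library, so counting identical junctions 1 time left the picked group differences of genome-wide shares unchanged. The exact sign-flip test could call no comparison, so uncalled ones could not gain a call there.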
